A study of Mus musculus with 6 samples.

Results

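The genes described here build and maintain mitochondria: the TOM and TIM translocases that import proteins, the machinery of fusion and fission, the factors that copy and transcribe mitochondrial DNA, the chaperones and proteases of the organelle, 2 nuclear respiratory factors and the mitophagy kinase Pink1. They were chosen by name, with earlier results of these data known. No measured value entered the rule. It takes every gene whose symbol is Timm or Tomm with a number, plus a fixed set of named genes. Each gene is read from probes that carry a RefSeq transcript of it. Of the 47 symbols that matched, 46 had a probe on the array and 45 were tested, out of 15307 genes tested in all. Tomm6os, a long noncoding RNA, had no probe, and the probe of Tomm20l was not well above background on any array.

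The study compared the inguinal white adipose tissue (iWAT), a subcutaneous fat depot, of mice that lack the zinc transporter ZIP13 (Slc39a13) with that of wild-type (WT) littermates. The Zip13-KO mice carry a Neo cassette in place of exons 6 to 8 in every tissue, so that the change is not limited to fat cells. Both genotypes were on the C57BL/6J background after at least 7 generations of backcrossing. All mice were 10 weeks old. Each genotype had 3 samples, each hybridized to its own 1-colour array, in which a brighter spot means more of the transcript it binds, and no label says more about how the samples relate to single animals. The p-values therefore measure the spread between these samples. The probe of Slc39a13 read 11.29, 10.87 and 10.72 on the log2 scale in WT against 6.76, 6.66 and 6.47 in Zip13-KO iWAT, a change of -4.33 (limma, adjusted p = 0.00128), so the arrays matched their labels, although the Zip13-KO values stayed well above background.

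Nearly all mitochondrial proteins are encoded in the nucleus, made in the cytosol and threaded through the TOM complex of the outer membrane, then sorted by the TIM23 complex to the matrix or by the small TIM chaperones and the TIM22 complex into the inner membrane. Mitofusins and OPA1 fuse the outer and inner membranes, and DRP1 (Dnm1l) with its receptors divides the organelle. Brown and beige fat cells, which burn fuel for heat, hold many more mitochondria than white fat cells do.

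Most of the genes had higher values in Zip13-KO than in WT iWAT, by modest amounts. The log2 fold change was above 0 for 39 of the 45 genes, against 50% of all genes tested, and its median was 0.37, against -0.00 over all genes. The quartiles were 0.16 and 0.53, and among the 44 genes measured above background in both genotypes the range ran from -0.26 for Nrf1 to 0.82 for Timm9. Timm8a2 was dim on all 3 Zip13-KO arrays, none of which had it well above background, and has only a bound, at which the median was again 0.37. A gene was called when limma gave an adjusted p under 0.05 and the change was over 1.5-fold (0.58 on the log2 scale). By that rule 7 genes, Timm9, Mfn2, Tfb2m, Hspa9, Clpp, Lonp1 and Opa1, rose and 0 fell, while 10.3% of all genes tested were called higher and 8.38% lower, so that 15.6% of these genes were called higher. At the same fold and an unadjusted p under 0.05, 7 genes were higher, against 11.4% of all genes. The 1 gene counted lower there, against 10% of all genes, was Timm8a2, whose fold rests on values below background. Without the fold threshold, and with the brightest probe of each gene, 27 genes (60.0%) were higher and 0 lower at an adjusted p under 0.05. Over all genes 19.3% were higher and 15.2% lower. At an unadjusted p under 0.05 with no fold threshold 29 were higher, against 25.3% of all genes, and 3 lower (Fis1, Nrf1 and the dim Timm8a2), against 21.8%. After normalization between arrays, all 3 Zip13-KO values lay above all 3 WT values for 34 of the 45 genes (75.6%), against 29.2% of all genes. They lay below them for 4, Timm10b, Timm8a2, Fis1 and Nrf1, against 25.9%.

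**Figure D1:**
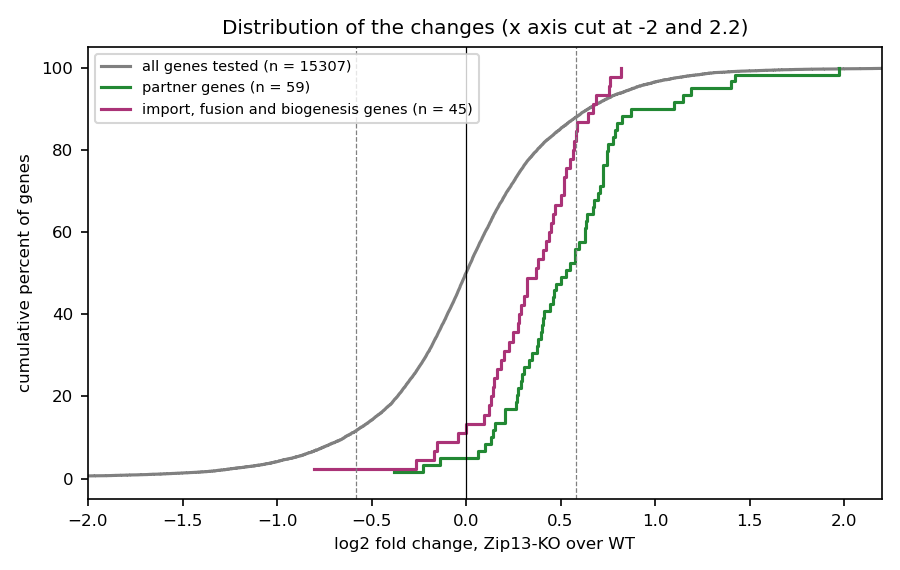
Cumulative percent of genes (y axis) against log2 fold change, Zip13-KO over WT (x axis), for all 15307 genes tested, the 45 import, fusion and biogenesis genes and 59 listed partner genes; dashed lines mark the 1.5-fold threshold. The curve of the 45 genes lies to the right of that of all genes, with a median of 0.37 against -0.00, and stays narrow.

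Of 8 listed adipocyte genes 3, Plin1, Lipe and Pparg, were called higher in Zip13-KO, the median change was 0.67, and their summed signal was 367177 to 500835 intensity units in WT and 582968 to 611952 in Zip13-KO arrays. Of 9 brown and beige adipocyte genes 8 were called higher, with a median of 2.19 and summed signals of 36079 to 58043 in WT and 161360 to 250752 in Zip13-KO arrays. Of 8 macrophage genes 6 were called lower, with a median of -1.12 and summed signals of 71736 to 110164 in WT and 36391 to 44306 in Zip13-KO arrays. In whole tissue, fewer cells of a type and less RNA per cell cannot be told apart, and the part of these shifts in the values of the 45 genes was not tested. Of the other listed cell types, 0 of 9 lymph node genes (summed signals of 56923 to 68916 in WT and 40193 to 46694 in Zip13-KO arrays), 0 of 8 skeletal muscle genes (1035 to 2932 and 1648 to 6089) and 0 of 4 mammary genes (96 to 330 and 112 to 438) were called. Krt8, Elf5, Csn3 and Wap were not well above background. Of 8 stromal genes 3 were called lower (197706 to 418898 and 172812 to 212506), and of 6 endothelial genes 1 was called higher (9893 to 11017 and 11297 to 12041).

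WT replicate 1 stood apart from the other WT arrays. The median of the 45 genes relative to each gene's WT mean was -0.12 in WT replicate 1, 0.05 in replicate 2 and 0.08 in replicate 3, and 0.36, 0.40 and 0.31 in the Zip13-KO arrays. WT replicate 1 was the lowest WT array for 35 of the 45 genes, against 41.4% of all genes, and its adipocyte genes were also low, with a median of -0.39 against 0.25 and 0.16 in the other WT arrays. Without it, 2 of the 7 called genes, Timm9 and Tfb2m, were called, and the median change of the 45 genes was 0.33.

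All 6 arrays lay on 1 slide. The 3 WT arrays and Zip13-KO replicate 1 share 1 value of the first position index, and Zip13-KO replicates 2 and 3 share the other. Zip13-KO replicate 1 alone, beside the WT arrays in that index, was above all 3 of them for 40 of the 45 genes, against 40.2% of all genes, with a median difference of 0.36 from the WT mean. With the index as a term in the fit, which leaves that 1 array to carry the genotype difference, 0 of the 45 genes were called by limma at an adjusted p under 0.05 and 1.5-fold, as were 0 of all genes higher and 7 lower. At an unadjusted p under 0.05 and the same fold that fit gave 9 of the 45 genes higher, against 11.1% of all genes, and 0 lower, against 9% of all genes.

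**Figure D2:**
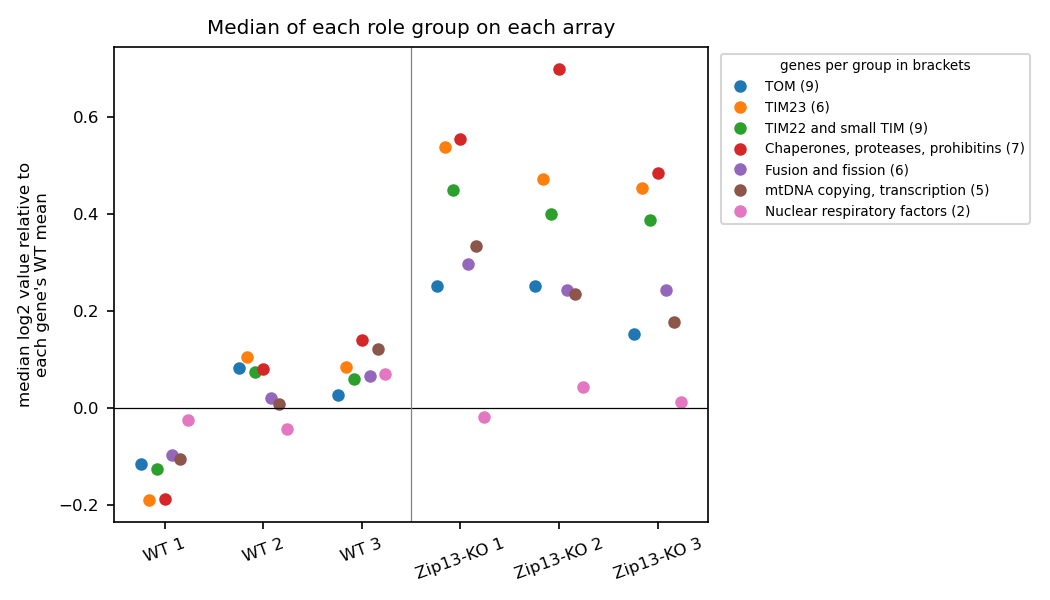
Median log2 value of each role group on each array relative to each gene's WT mean (y axis), for the 6 arrays (x axis), with the number of genes per group in brackets. WT replicate 1 is the lowest array in all groups but the nuclear respiratory factors, and the Zip13-KO arrays lie above the WT arrays in all groups except that one.

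Promoter sequences were at hand for 41 of the 45 tested genes (50 windows from RefSeq, build GRCm38.p6, each 250 bases before to 50 after a transcription start); Hspa9, Timm21, Tomm7 and Tomm40l had no window. The windows were searched on both strands for letters known from the binding sites of 3 kinds of regulator of mitochondrial genes: GCGCA, any base and GCGC in a row for NRF1, CCGGAAG for GABPA and other ETS factors, and TCAAGGTCA for the estrogen-related receptors. CCGGAAG can overlap its own copy on the opposite strand, and the NRF1 letters can overlap another copy of themselves. The GABPA letters stood in 22 of the 50 windows (44.0%), against 8.86% of all 32851 windows and 14.9% of those of the genes tested. The NRF1 letters stood in 7 windows (14.0%), against 4.6% of all windows and 8.29% of those of the genes tested. The letters of the estrogen-related receptors stood in 1 window, that of Timm8b (2.0%, against 0.423% of all windows and 0.274% of those of the genes tested). Of the windows of the partner genes described further on, 38.9% held the GABPA letters, 18.5% the NRF1 letters and 0.0% those of the estrogen-related receptors. Of the windows of all genes called higher, the shares were 10.6%, 7.91% and 0.44%. A match describes letters, not a bound site. The median change was 0.31 over the 24 genes with any match, of which 2 were called higher, and 0.40 over the 17 without, of which 4 were called higher. The 20 genes with the GABPA letters had a median of 0.30 and 1 called gene, and the 21 without had 0.42 and 5. The 7 genes with the NRF1 letters had a median of 0.50 and 1 called gene, and the 34 without had 0.31 and 5.

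The windows of 5 genes are printed because they show the range of this pattern: Opa1 and Clpp rose and hold 1 match each, Timm9 had the largest rise of the 45 genes and holds none, and Timm8b and Polrmt hold several and were not called. Capitals mark the matched letters on either strand, and bases are counted from 1 at the transcription start, with -1 before it. The Opa1 window (chr16:29579084-29579383, plus strand) holds the NRF1 letters from base -59, the Clpp window (chr17:56990014-56990313, plus strand) the GABPA letters from base 36, and the Timm8b window (chr9:50603651-50603950, plus strand) the letters of the estrogen-related receptors, GABPA and NRF1 from bases -96, -12 and 19. The Polrmt window (chr10:79746532-79746831, minus strand) holds the GABPA letters from base -43 and a pair of overlapping NRF1 matches from bases -6 and 1, and the Timm9 window (chr12:71136626-71136925, minus strand) holds none.
Opa1: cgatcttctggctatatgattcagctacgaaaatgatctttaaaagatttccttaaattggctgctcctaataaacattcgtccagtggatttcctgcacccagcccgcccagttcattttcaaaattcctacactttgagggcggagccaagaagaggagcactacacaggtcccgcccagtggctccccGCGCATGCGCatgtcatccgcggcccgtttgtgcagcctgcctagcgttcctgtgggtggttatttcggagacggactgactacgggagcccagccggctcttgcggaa
Clpp: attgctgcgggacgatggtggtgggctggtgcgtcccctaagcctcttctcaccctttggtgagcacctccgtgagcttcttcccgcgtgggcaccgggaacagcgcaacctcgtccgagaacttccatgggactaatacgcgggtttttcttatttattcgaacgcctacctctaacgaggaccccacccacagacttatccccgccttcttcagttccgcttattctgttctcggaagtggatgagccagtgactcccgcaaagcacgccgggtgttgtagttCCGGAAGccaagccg
Timm8b: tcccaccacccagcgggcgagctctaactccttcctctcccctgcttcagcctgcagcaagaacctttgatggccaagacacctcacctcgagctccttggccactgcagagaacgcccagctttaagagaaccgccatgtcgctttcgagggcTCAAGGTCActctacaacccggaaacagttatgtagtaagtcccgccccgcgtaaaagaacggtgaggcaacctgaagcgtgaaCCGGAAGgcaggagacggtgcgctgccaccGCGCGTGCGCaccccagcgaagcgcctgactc
Polrmt: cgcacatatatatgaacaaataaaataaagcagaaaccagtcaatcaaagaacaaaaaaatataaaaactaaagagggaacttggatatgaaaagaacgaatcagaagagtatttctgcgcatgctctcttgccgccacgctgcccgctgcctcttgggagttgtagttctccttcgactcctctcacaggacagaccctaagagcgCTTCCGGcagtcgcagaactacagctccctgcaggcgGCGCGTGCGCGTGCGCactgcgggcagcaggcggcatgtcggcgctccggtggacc
Timm9: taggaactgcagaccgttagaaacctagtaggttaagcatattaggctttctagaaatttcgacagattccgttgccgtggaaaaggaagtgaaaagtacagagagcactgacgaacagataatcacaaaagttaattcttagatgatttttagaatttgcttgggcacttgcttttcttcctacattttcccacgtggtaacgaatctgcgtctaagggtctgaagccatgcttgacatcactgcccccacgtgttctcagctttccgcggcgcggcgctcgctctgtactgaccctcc

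**Figure D3:**
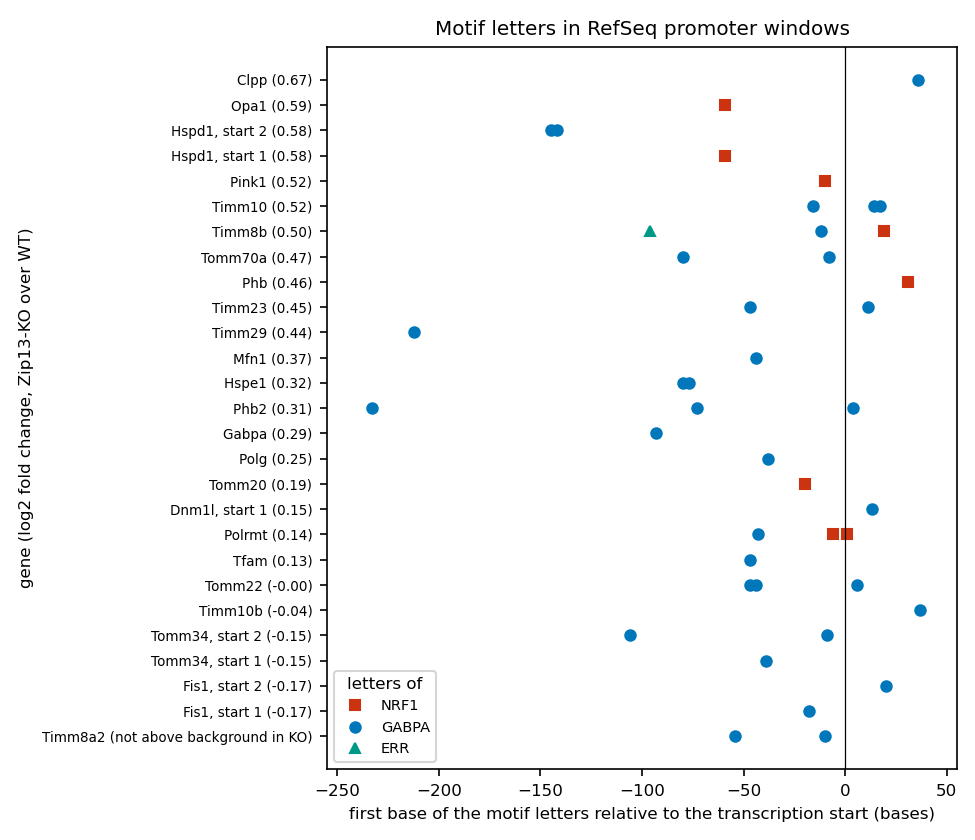
Place of the NRF1, GABPA and estrogen-related receptor (ERR) letters in the promoter windows that hold any, as the distance of their first base from the transcription start (x axis), by gene with its log2 fold change (y axis, lowest at the bottom). Matches lie in genes from Fis1 at -0.17 to Clpp at 0.67, and in Timm8a2, at the bottom, which has only a bound.

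The TOM complex and its receptors form the entry gate of the outer membrane. With the brightest probe of each gene, 0 of their 9 tested genes were called, against 10.3% of all genes higher and 8.38% lower. At an adjusted p under 0.05, 3 (33.3%) were higher, against 19.3% of all genes, and the median was 0.22. Tomm70a, a receptor for carrier proteins, read 9.31, 9.78 and 9.69 in WT against 10.15, 10.002 and 10.05 in Zip13-KO iWAT. After normalization all 3 Zip13-KO arrays were above the WT arrays, and the change of 0.47 (SE 0.14, limma adjusted p = 0.042) was the largest of the group. Before normalization its signals overlapped, with 966.511 units in WT replicate 2 against 948.674 in Zip13-KO replicate 2. Tomm34, a cytosolic cochaperone of import, read 12.24, 12.37 and 12.47 in WT against 12.25, 12.16 and 12.22 in Zip13-KO iWAT. The genotypes overlapped, and the difference of -0.15 (adjusted p = 0.205) was the lowest of the group. The central receptor Tomm22 differed by -0.00 (adjusted p = 0.988), a sign that turned under 7 of 19 alternatives. Tomm20, a presequence receptor, differed by 0.19 and the channel Tomm40 by 0.28 (adjusted p = 0.068). The other genes higher at an adjusted p under 0.05 were Tomm7, a small subunit, at 0.28 and Tomm40l, a paralog of the channel, at 0.32. The small subunits Tomm5 and Tomm6 differed by 0.16 and 0.22 and did not pass the test with the brightest probe. A dimmer probe of Tomm5 changed by 0.23 (limma adjusted p = 0.048).

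The presequence translocase TIM23 draws precursors across the inner membrane. With the brightest probe of each gene, 6 of its 6 genes in the rule were above 0, against 50% of all genes. At an adjusted p under 0.05, 5 (83.3%) were higher, against 19.3% of all genes. By that probe 0 of these genes passed the fold threshold, and the median was 0.49. Genes of the import motor without a Timm name are not counted here, among them Hspa9, described below. Timm21, which docks TIM23 to the TOM complex, had the largest change of the group at 0.57 (SE 0.12, limma adjusted p = 0.018), just under the fold threshold. Its values were 9.48, 9.86 and 9.84 in WT against 10.34, 10.23 and 10.33 in Zip13-KO iWAT, with no overlap. Timm17a, a channel-forming subunit, read 12.76, 13.13 and 13.11 in WT against 13.60, 13.59 and 13.46 in Zip13-KO iWAT, a change of 0.55 (adjusted p = 0.019). A second, dimmer probe of Timm17a changed by 0.62 (limma adjusted p = 0.015), past the fold threshold. The paralog Timm17b read 12.51, 12.39 and 12.39 in WT against 12.54, 12.51 and 12.53 in Zip13-KO iWAT, so that the genotypes overlapped, and the difference was 0.10 (adjusted p = 0.336). Timm50, the receptor of the complex, changed by 0.53, Timm23, the channel, by 0.45 and Timm44, which tethers the import motor, by 0.42, each at an adjusted p under 0.05.

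The small TIM chaperones carry hydrophobic proteins through the intermembrane space to the TIM22 complex. Of the 9 genes of this group 1 (11.1%) was called higher, against 10.3% of all genes. At an adjusted p under 0.05, 6 (66.7%) were higher, against 19.3% of all genes, and the median was 0.40. Timm9, which forms the hexamer with Timm10, rose 1.76-fold, the largest change of the 45 genes on the log2 scale (0.82, SE 0.14, limma adjusted p = 0.00978). It read 9.21, 9.57 and 9.71 in WT against 10.35, 10.30 and 10.29 in Zip13-KO iWAT, with no overlap. Timm10 read 11.28, 11.76 and 11.67 in WT against 12.07, 12.18 and 12.02 in Zip13-KO iWAT and was higher by 0.52 (adjusted p = 0.035), below the fold threshold. Timm10b differed by -0.04 (adjusted p = 0.646), and a dimmer probe of it by 0.15. Timm8a1, Timm8b, Timm13 and Timm29 were higher by 0.40, 0.50, 0.38 and 0.44, and Timm22, the channel of the carrier translocase, differed by 0.20 (adjusted p = 0.127). Timm8a2, a close relative of Timm8a1, read 3.77, 3.56 and 3.90 in WT against 3.48, 2.43 and 2.91 in Zip13-KO iWAT. Since no Zip13-KO array had it well above background, the difference is a bound, at least 1.02-fold lower, from a WT mean of 3.74 and a measured Zip13-KO mean of 2.94 raised to 3.71 (limma adjusted p = 0.058). The fitted difference of -0.81 rests on those dim values and was -0.10 with normexp background correction and -0.11 in the deposited table.

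The matrix chaperones, proteases and prohibitins fold, degrade and scaffold imported proteins. With the brightest probe of each gene, all 7 were above 0 and 3 (42.9%) were called higher, against 50% and 10.3% of all genes. At an adjusted p under 0.05, 6 (85.7%) were higher, against 19.3% of all genes, with a median of 0.58. Hspa9, the Hsp70 that powers the import motor, read 12.68, 13.10 and 13.19 in WT against 13.68, 13.75 and 13.60 in Zip13-KO iWAT and rose by 0.69 (SE 0.15, adjusted p = 0.017). Clpp, the proteolytic subunit of a matrix protease, read 10.02, 10.32 and 10.28 in WT against 10.85, 10.93 and 10.86 in Zip13-KO iWAT and rose by 0.67 (SE 0.10, adjusted p = 0.00816). For these genes no WT value reached the lowest Zip13-KO value. Lonp1, a protease of oxidized and misfolded proteins, read 12.78, 13.00 and 13.10 in WT against 13.55, 13.72 and 13.54 in Zip13-KO iWAT and rose by 0.64 (SE 0.11, adjusted p = 0.010). The chaperonin genes Hspd1 and Hspe1 differed by 0.58 and 0.32, and Hspd1 (1.49-fold, adjusted p = 0.024) lay just under the fold threshold. Hspe1 did not pass the test with the brightest probe (adjusted p = 0.088). Dimmer probes of Hspe1 changed by 0.39 (limma adjusted p = 0.038) and 0.25 (limma adjusted p = 0.164). The prohibitins Phb and Phb2 were higher by 0.46 and 0.31, and a second, dimmer probe of Phb changed by 0.87. All Zip13-KO arrays were above all WT arrays also for Phb2, the smallest change of the group, which read 12.54, 12.74 and 12.81 in WT against 13.04, 12.98 and 12.99 in Zip13-KO iWAT.

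With the brightest probe of each gene, all 3 fusion genes were higher at an adjusted p under 0.05. Of the 3 fission genes 0 passed the test by that probe. Over all genes tested, 19.3% were higher and 15.2% lower at that level. Mfn2, a mitofusin of the outer membrane, rose 1.69-fold (log2 0.76, SE 0.17, adjusted p = 0.020), from 10.85, 11.45 and 11.40 in the WT to 12.04, 12.01 and 11.93 in the Zip13-KO arrays, and its other probes changed by 0.82 and 0.73. Opa1, the fusion protein of the inner membrane, rose by 0.59 (SE 0.08, adjusted p = 0.00709), from 10.74, 10.89 and 10.90 to 11.36, 11.48 and 11.44. In both, all Zip13-KO arrays lay above all WT arrays. Mfn1, the other mitofusin, was higher by 0.37 (adjusted p = 0.016). Among the fission genes, Dnm1l, the GTPase that divides the organelle, differed by 0.15 (adjusted p = 0.234) and its receptor Mff by 0.12 (adjusted p = 0.185). Fis1 read 14.07, 14.10 and 14.04 in WT against 13.91, 13.86 and 13.94 in Zip13-KO iWAT, a difference of -0.17 (adjusted p = 0.102), with all Zip13-KO values below all WT values. Its dimmer probe went the other way, at 0.50 (limma adjusted p = 0.020). With the mean of the Fis1 probes the sign turned, to 0.17 (adjusted p = 0.136). Relative to the WT mean, the mean of the 3 fusion genes was -0.19, 0.09 and 0.10 in WT against 0.58, 0.58 and 0.56 in Zip13-KO iWAT. The mean of the 3 fission genes was -0.03, 0.01 and 0.02 in WT against 0.04, 0.03 and 0.03 in Zip13-KO iWAT. The small fission mean rests on the probe taken for Fis1: the mean change of the 3 fission genes was 0.03 with the brightest probes and 0.15 with the mean of each gene's probes, a setting added after seeing the data, against 0.57 and 0.58 for the 3 fusion genes. Other genes that promote division were higher: among the partner genes described further on, Mtfp1, Mief2 and Mtfr1 rose by 1.97, 0.80 and 0.63. The difference between fusion and fission was chosen with these values known and has no test.

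**Figure D4:**
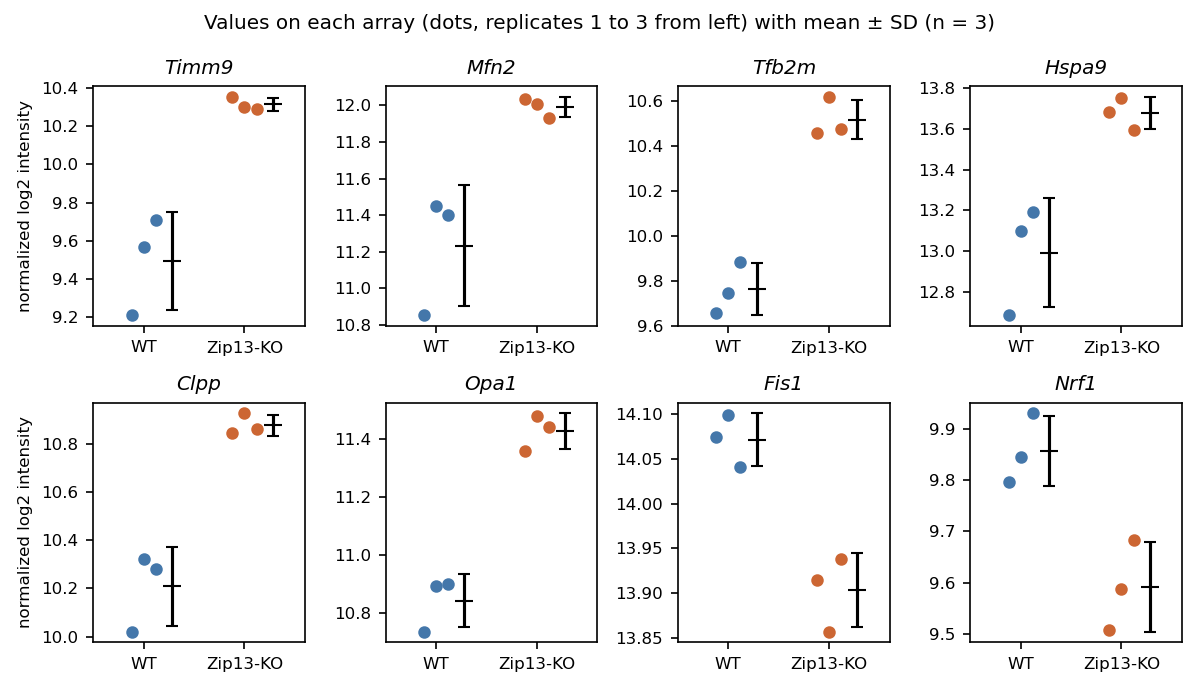
Normalized log2 intensity (y axis) of Timm9, Mfn2, Tfb2m, Hspa9, Clpp, Opa1, Fis1 and Nrf1 on each array (dots, replicates 1 to 3 from the left) for WT and Zip13-KO (x axis), with the mean and SD (n = 3); scales differ between genes. The genotypes do not overlap in any of the 8 genes, with Zip13-KO higher in the first 6 and lower in Fis1 and Nrf1.

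Of the 5 genes that copy and transcribe mitochondrial DNA, 1 (20%) was called higher, against 10.3% of all genes. At an adjusted p under 0.05, 2 (40%) were higher, against 19.3% of all genes, with a median of 0.25. Tfb2m, the transcription initiation factor of the organelle, read 9.66, 9.75 and 9.88 in WT against 10.46, 10.62 and 10.48 in Zip13-KO iWAT and rose 1.69-fold (log2 0.76, SE 0.09, adjusted p = 0.00585). Its paralog Tfb1m, a methyltransferase of the mitochondrial ribosomal RNA, was higher by 0.57 (adjusted p = 0.012), just under the fold threshold, from 9.10, 9.39 and 9.17 to 9.83, 9.84 and 9.69. Tfam, which packages and transcribes mitochondrial DNA, read 10.44, 10.45 and 10.44 in WT against 10.61, 10.57 and 10.56 in Zip13-KO iWAT. After normalization it was higher on every Zip13-KO array, but by 0.13 (limma adjusted p = 0.154). Before normalization its signals overlapped, at 1411.25, 1525.38 and 1524.5 units in WT against 1469.42, 1409.63 and 1429.06 in Zip13-KO iWAT. The polymerases Polg and Polrmt differed by 0.25 (adjusted p = 0.131) and 0.14 (adjusted p = 0.244).

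The nuclear respiratory factors, which bind promoters of nuclear genes for mitochondrial proteins, had differences of opposite sign. Gabpa read 8.97, 8.88 and 9.03 in WT against 9.27, 9.32 and 9.16 in Zip13-KO iWAT, higher by 0.29 (adjusted p = 0.038). A dimmer probe of Gabpa differed by 0.17 (limma adjusted p = 0.159) and the mean of its probes by 0.23 (limma adjusted p = 0.066), so passing the test depends on the probe. Nrf1 read 9.80, 9.85 and 9.93 in WT against 9.51, 9.59 and 9.68 in Zip13-KO iWAT, a difference of -0.26 (SE 0.08, adjusted p = 0.0502) just outside the threshold, with no overlap. Of its 2 dimmer probes, that at -0.51 passed the test (limma adjusted p = 0.016) and that at -0.11 did not (limma adjusted p = 0.587). Pink1, the kinase that marks damaged mitochondria for removal, read 12.30, 12.57 and 12.53 in WT against 13.01, 12.95 and 12.99 in Zip13-KO iWAT, higher by 0.52 (adjusted p = 0.012) and below the fold threshold.

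**Figure D5:**
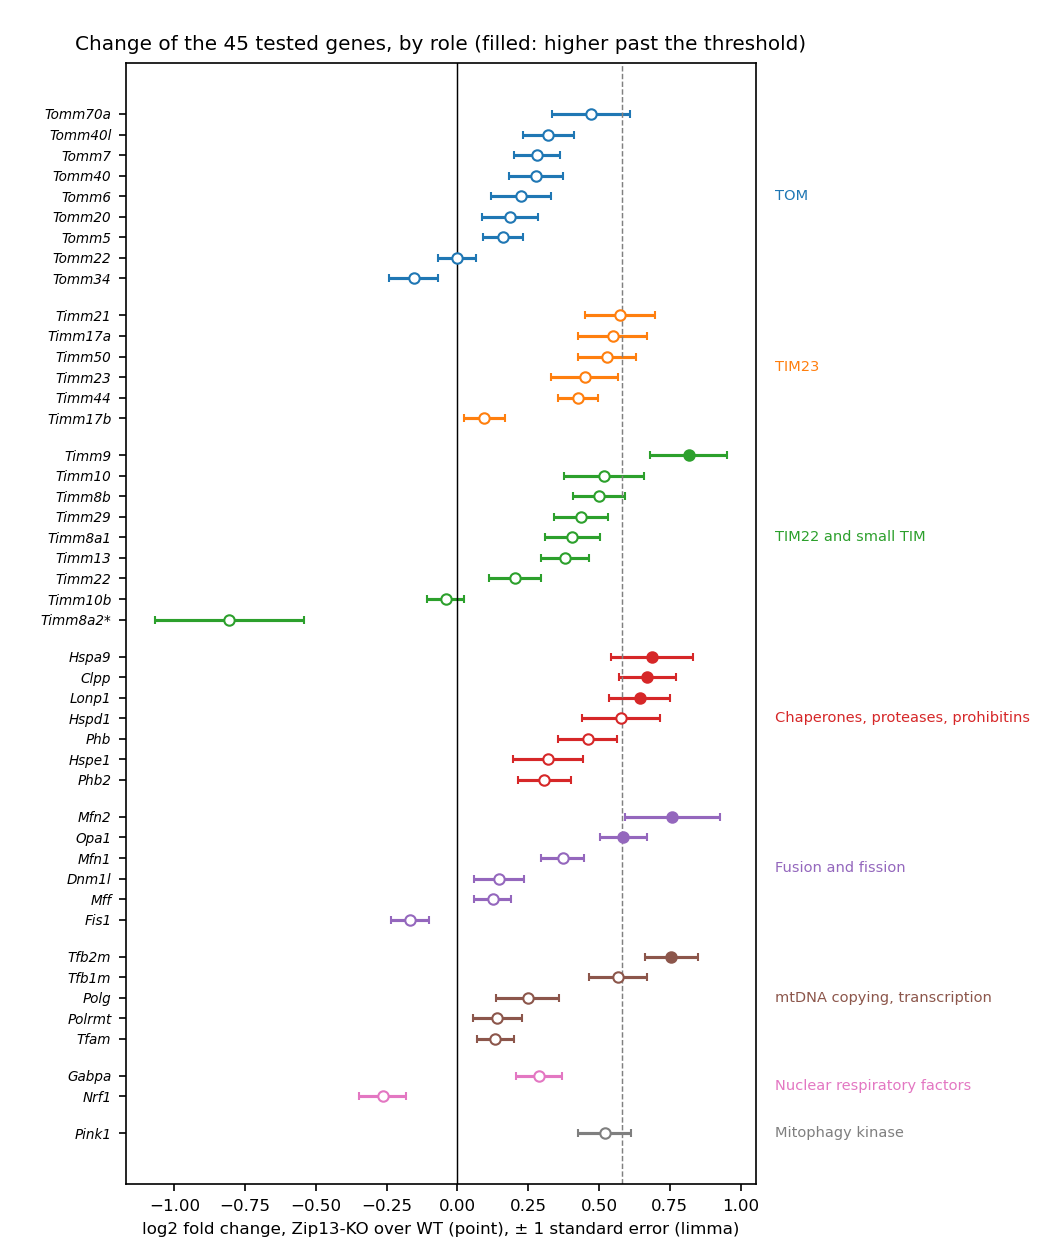
Log2 fold change, Zip13-KO over WT, with 1 standard error from limma (x axis), of the 45 genes by role (y axis); filled points passed the adjusted p and fold thresholds, and the dashed line marks 0.58 on the log2 scale. The 7 filled points are Timm9, Mfn2, Tfb2m, Hspa9, Clpp, Lonp1 and Opa1, and no point left of 0 is filled; the asterisk marks Timm8a2, which was not well above background in Zip13-KO, so that its point is no measured difference.

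The changes of paralogs with related roles were set against each other. The difference within each of 7 pairs, chosen with these values known, was tested with a two-sided exact permutation test. Its smallest p with 3 against 3 arrays is 0.1. No pair could therefore pass the threshold used for genes, and the test cannot decide whether paralogs differed. The values below are descriptive and rest on the brightest probe of each gene. A dimmer probe changed by 0.87 for Phb, 0.15 for Timm10b and 0.52 for Timm8a1, against 0.46, -0.04 and 0.40 with the brightest, so these pair values depend on the probe. The dimmer probe of Timm8a1 changed more than Timm8b, at 0.50, the reverse of the order with the brightest. The change minus that of the paralog was 0.56 for Timm10 over Timm10b, 0.45 for Timm17a over Timm17b, 0.39 for Mfn2 over Mfn1 and 0.15 for Phb over Phb2 on the log2 scale. In each of these the genotypes did not overlap, so that each p was the smallest the design allows (exact permutation p = 0.1, adjusted p = 0.175 over the 7 pairs). The pair Tfb2m and Tfb1m differed by 0.19 (exact permutation p = 0.2), Timm8a1 and Timm8b by -0.10 (exact permutation p = 0.2) and Tomm40 and Tomm40l by -0.04 (exact permutation p = 0.8), and in these the genotypes overlapped.

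Genes that act with these in import, membrane dynamics, biogenesis, protein quality control and mitophagy were taken from a list of 60 other genes, of which 59 were tested. Of these 24 were called higher and 0 lower by limma, beside 10.3% and 8.38% of all genes. At an unadjusted p under 0.05 and the same fold 26 were higher and 0 lower, beside 11.4% and 10% of all genes. Without the fold threshold 43 were higher and 1 lower at an adjusted p under 0.05, beside 19.3% and 15.2% of all genes. The median of the 59 genes was 0.53. Ppargc1a stands in both this list and that of brown and beige adipocytes. Among 18 import genes 7 were called higher, led by Immp2l, an inner membrane peptidase that trims imported proteins, at 1.40, from 8.73, 9.20 and 9.47 to 10.55, 10.60 and 10.47. Chchd4, the oxidoreductase of the disulfide relay that imports the small TIM proteins, rose by 0.71, and Pmpcb, a subunit of the presequence protease, by 0.75. Grpel1, Dnajc15 and Pam16 were also called higher, by 0.68, 0.64 and 0.63. The smallest difference in this group was that of Mtx1, at 0.21 (adjusted p = 0.0503).

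Of 14 genes of dynamics and cristae 7 (50%) were called higher, beside 10.3% of all genes. Mtfp1, an inner membrane protein that promotes fission, rose by 1.97 (SE 0.17, adjusted p = 0.00441), from 9.37, 9.71 and 10.04 in the WT to 11.71, 11.75 and 11.58 in the Zip13-KO arrays, the largest change of the partner genes. The cristae organizing genes Apoo, Chchd3, Immt and Chchd6 rose by 1.15, 0.87, 0.72 and 0.67, and Mief2, a receptor of DRP1, by 0.80. Oma1, a protease of OPA1, differed by 0.13 (adjusted p = 0.272).

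Of 13 biogenesis and mtDNA maintenance genes 6 (46.2%) were called higher, beside 10.3% of all genes. Without the fold threshold 1 was lower, beside 15.2% of all genes. The coactivators Ppargc1a and Ppargc1b, which drive mitochondrial biogenesis, rose 2.14-fold and 2.28-fold, and the nuclear receptor Esrra that they coactivate 1.65-fold. Ppargc1a read 8.55, 8.47 and 8.51 in WT against 9.56, 9.93 and 9.35 in Zip13-KO iWAT. The related coactivator Pprc1 read 6.75, 6.53 and 6.65 in WT against 6.23, 6.42 and 6.13 in Zip13-KO iWAT, a difference of -0.38 (adjusted p = 0.036), below the fold threshold. Tefm, a mitochondrial transcription elongation factor, and Mgme1, an exonuclease of mitochondrial DNA, rose by 0.82 and 0.75. Of 8 proteostasis genes 3 were called higher, led by the chaperone Dnaja3 at 0.79, and Htra2, a protease of the intermembrane space, differed by -0.23 (adjusted p = 0.056). Of 6 mitophagy genes 5 were above 0 and 1 was called higher, with a median of 0.15. The lowest of them, the mitophagy receptor Fkbp8, differed by -0.14 (adjusted p = 0.174).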

How the data were processed

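The authors read 6 Agilent SurePrint G3 Mouse arrays, 3 per genotype, with Feature Extraction 11.5.1.1, per the labels and file headers. The deposited processed signal is an intensity, from which the software removed background and spatial trends, and it was not normalized between arrays. The deposited value table holds log2 of the median signal, quantile normalized and not background corrected, as found by setting it against the scanner values. Its direction is that of expression.

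Here log2 of the processed signal was taken without control spots and outlier spots, spots of a probe were averaged, and arrays were quantile normalized. Probes were named by RefSeq accession (28331 of 55681 probes, 50.9%, had a symbol, by the GRCm38.p6 table). The array design was annotated on mm9, so no probe positions are printed. Probes well above background on all 3 arrays of a genotype were kept (33047, of which 20319 had a symbol), and the brightest kept probe stood for a gene. Genotypes were compared with limma 3.58.1 in R 4.3.3 (statmod 1.5.0), with Benjamini-Hochberg adjustment over 15307 genes, at an adjusted p under 0.05 and 1.5-fold. The study's methods filter probes with a Gaussian mixture and combine a t-test with a median-ratio test; limma takes their place, and the t-test part alone is an alternative, without the mixture filter and the median-ratio test. Where a gene was not well above background on any array of a genotype, the fold is a bound, with each dim array set to the floor that its own probes well above background give. Means and SD cover 3 arrays, and their number limits the precision. Summed signals of markers are sums of intensity over a list.

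The age of the mice and the deleted exons come from the labels and the study text. The genes and lists were chosen with earlier results of these data known. Full values were given for called genes and for the largest and smallest change of each role, the other values being for genes whose comparison the text makes. Alternatives were each array's 75th percentile, normexp (offset 50), the deposited table, other filters and probe rules, the methods' t-test, a robust prior with an intensity trend, the replicate block, the slide position, other thresholds and leaving out each array. Those for the count without a fold threshold were added after seeing the data. Normexp was meant for the mean spot signal; the median signal was used here. A single slide and a single scan held all arrays, so neither could be tested as a batch. The limma steps were tested on simulated data before use. Median processed signals were 39.2 to 40.6 intensity units in WT and 33.2 to 35.0 in Zip13-KO arrays, 62.5% to 63.2% and 58.8% to 60.4% of probes were well above background, so that every Zip13-KO array was dimmer before normalization, and no spot was saturated. Local background medians were 31 to 39.5 units. Depth in reads does not apply to arrays. The result of 1 listed partner gene is not reported here.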

Additional observations from a re-analysis of the deposited data

How the results depend on the processing

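The median change of the 45 genes was above 0 under all alternatives run (0.33 to 0.44). Counts moved more. The count of the 45 genes called higher, 7 as reported, was 15 with 75th percentile scaling (and 1 lower, Timm8a2), 4 at an adjusted p under 0.01, 27 with no fold threshold and 0 with the slide position in the fit; leaving out each array gave 2 (without WT replicate 1) to 12 (without WT replicate 2) higher, 5 without Zip13-KO replicate 1, 4 without replicate 2, and 0 to 1 lower (Timm8a2, without Zip13-KO replicate 1). Timm9 and Tfb2m were called under 18 of 19 alternatives, all but the slide position. The count of the 59 partner genes called higher, 24 as reported, was 0 with the slide position, 14 at an adjusted p under 0.01 and 43 with no fold threshold (1 lower).

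The alternatives of the count without the fold threshold, 27 higher, were chosen after seeing the data. It became 13 with the replicate block, 0 with the slide position, 5 at an adjusted p under 0.01 and 6 to 24 leaving out each array (6 without Zip13-KO replicate 1). The 0 lower became 1 with 75th percentile scaling (Timm8a2), normexp, the deposited table, the all-array filter, the mean of probes and the intensity trend (Nrf1) and the adjusted t-test (Fis1), 2 with the unadjusted t-test (Fis1, Nrf1) and 0 to 1 leaving out each array. Fis1 reversed to 0.17 with the mean of its probes.

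The labels give replicate numbers. Same-numbered arrays did not deviate together (correlations -0.02, 0.04 and -0.08), so the numbers were not used as pairs. With the replicate block 7 genes were called higher, and 1278 higher and 1051 lower over all genes. The number of arrays and a dim signal such as Timm8a2's limit what can be measured.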
